A study of Mus musculus with 8 samples.

Results

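Among the H3K79me2 peaks of control cultures of spermatogonial stem cells, 1992 lay outside every annotated gene. They were chosen by measured values of the control list, the position and width of its peaks: on chromosomes 1 to 19, at least 500 bp wide, and overlapping no RefSeq GRCm38 gene span of any biotype by even 1 bp. They made up 5.69% of the 35029 control peaks of that width on those chromosomes (exact Clopper-Pearson 95% interval 5.45 to 5.93%). The other 33037 peaks touched a gene and are called genic peaks here, and the 1992 are called intergenic peaks. The whole control list had 47774 peaks and the EPZ5676 list had 9182.

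H3K79me2 is the dimethyl mark on a lysine in the core of histone H3. DOT1L, the enzyme that places it, works with elongation factors, and the mark is best known from the bodies of transcribed genes, where it is densest in the part that follows the start. A peak outside genes can therefore border a marked gene, or cover a stretch that is transcribed but lies beyond the annotated span. MicroRNA genes are a case of the second kind in principle, because their annotated span is only the short hairpin while the primary transcript it is cut from can be far longer.

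The series compared 2 conditions, each with 2 H3K79me2 samples and 2 input samples. EPZ5676 cultures received 2 µM of the DOT1L inhibitor EPZ5676 for 7 days, and control cultures received vehicle, which the protocols call DMSO and the sample descriptions call EtOH. All groups shared the same source: testis cells of mice of the strain B6.129S7-Gt(ROSA)26Sor/J, 7 days old and carrying a LacZ reporter in all tissues, which were kept on SNL 76/7 fibroblasts as feeders with GDNF at 10 ng/mL and FGF2 at 0.5 ng/mL. Cells were fixed with 1% formaldehyde for 10 min, and no step that removed the feeder cells is named. Each condition had 1 peak list, so there is no replicate error and no test between conditions; the intervals given reflect only how many peaks were counted, and peaks that lie side by side are not independent. Read depth is unknown, and the sources used here do not say whether replicates were pooled or inputs used. In the control list, 20 of 25 genes of undifferentiated spermatogonia had a peak on the gene, as did 9 of 16 fibroblast genes and 6 of 16 genes of testis somatic cells, against 54.2% of all protein-coding genes.

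Some intergenic peaks began inside the annotated start region of a gene without touching the gene itself. RefSeq promoter windows (250 bases before to 50 after the start, GRCm38.p6) were overlapped by an intergenic peak in 65 cases, for 63 genes, with a median of 69 bases covered. The sequences of 4 of them are shown on the gene's own strand, 5′ to 3′, with the bases under the intergenic peak in capitals; they were chosen after their values were seen, as the window under the peak of highest fold enrichment (Zbtb2), a window largely covered (Gm32341), a window of a gene that also had EPZ5676 peaks (Zfp292) and a window whose peak was itself overlapped by an EPZ5676 peak (Ppp4r2). The windows are Zbtb2 at chr10:4388059-4388358 (minus strand), Gm32341 at chr19:16919293-16919592 (plus strand), Zfp292 at chr4:34882899-34883198 (minus strand) and Ppp4r2 at chr6:100833388-100833687 (plus strand).
Zbtb2: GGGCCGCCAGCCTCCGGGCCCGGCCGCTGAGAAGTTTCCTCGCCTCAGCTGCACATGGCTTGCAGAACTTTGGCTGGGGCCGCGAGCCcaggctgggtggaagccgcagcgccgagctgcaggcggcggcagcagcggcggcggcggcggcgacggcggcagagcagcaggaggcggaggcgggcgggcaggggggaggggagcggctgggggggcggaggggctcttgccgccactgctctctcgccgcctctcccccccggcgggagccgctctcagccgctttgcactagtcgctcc
Gm32341: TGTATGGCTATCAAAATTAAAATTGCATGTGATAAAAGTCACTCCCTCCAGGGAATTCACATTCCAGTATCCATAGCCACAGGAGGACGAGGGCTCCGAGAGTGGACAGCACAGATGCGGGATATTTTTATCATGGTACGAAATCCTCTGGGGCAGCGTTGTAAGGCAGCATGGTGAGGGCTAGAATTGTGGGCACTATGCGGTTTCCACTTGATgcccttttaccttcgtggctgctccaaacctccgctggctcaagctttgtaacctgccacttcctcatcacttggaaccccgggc
Zfp292: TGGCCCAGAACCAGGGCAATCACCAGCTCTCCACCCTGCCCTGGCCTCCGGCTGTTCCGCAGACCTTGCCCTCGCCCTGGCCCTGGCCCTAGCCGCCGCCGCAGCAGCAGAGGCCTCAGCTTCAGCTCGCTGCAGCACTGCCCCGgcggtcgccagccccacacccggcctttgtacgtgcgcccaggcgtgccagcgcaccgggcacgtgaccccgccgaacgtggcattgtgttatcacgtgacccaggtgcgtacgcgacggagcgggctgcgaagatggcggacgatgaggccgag
Ppp4r2: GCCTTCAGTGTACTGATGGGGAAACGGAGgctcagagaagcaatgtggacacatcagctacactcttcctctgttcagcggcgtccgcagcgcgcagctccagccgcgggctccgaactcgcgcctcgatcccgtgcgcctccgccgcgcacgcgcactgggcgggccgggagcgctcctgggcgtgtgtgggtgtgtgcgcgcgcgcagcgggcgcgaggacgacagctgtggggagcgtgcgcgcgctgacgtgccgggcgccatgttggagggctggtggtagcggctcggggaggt
In the Zbtb2 window 88 bases were covered, in Gm32341 215, in Zfp292 145 and in Ppp4r2 29. In each of the 4 the peak held the outer, upstream end and stopped before the start of the gene. The rule fixes this, because an intergenic peak touches no gene and is wider than the window. The 65 overlapped windows were rich in CpG, with a median of 25 CpG dinucleotides against 7 in all 31396 windows used, on chromosomes 1 to 17 and 19, and 20 in the 13575 windows of genes with a control peak. The GC box GGGCGG, searched on both strands (as GGGCGG or CCGCCC), was present in 46 of them, or 70.8%, against 36.0% of all windows and 59.5% of windows of genes with a control peak. Of those shown, Ppp4r2 had 40 CpG and Zbtb2 33, each with a GC box, whereas Zfp292 had 30 and Gm32341, a lncRNA gene, 9, each without.

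MicroRNA hairpins were the nearest genes of 2 of the 10 widest intergenic peaks, so the mature sequences of those described further on are given here from RefSeq (GRCm38.p6), with the seed, bases 2 to 8, in capitals. The first pair comes from Mir30a at chr1:23272269-23272339 and Mir30c-2 at chr1:23291701-23291784, and the last lines from Mir23a at chr8:84208518-84208592 and Mir34a at chr4:150068454-150068555, all on the plus strand. Of the let-7 hairpins, Mirlet7i (chr10:122985640-122985724), Mirlet7a-1 (chr13:48538179-48538272) and Mirlet7f-1 (chr13:48537829-48537917) are on the minus strand. The mature sequences of Mirlet7b (chr15:85707325-85707346) and Mirlet7c-2 (chr15:85706616-85706637) are on the plus strand, inside the lncRNA gene Lncppara.
mmu-miR-30a-5p: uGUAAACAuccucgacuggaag
mmu-miR-30c-5p: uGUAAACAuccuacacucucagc
mmu-let-7i-5p: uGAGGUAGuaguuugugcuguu
mmu-let-7a-5p: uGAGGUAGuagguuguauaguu
mmu-let-7f-5p: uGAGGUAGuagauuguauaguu
mmu-let-7b-5p: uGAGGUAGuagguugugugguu
mmu-let-7c-5p: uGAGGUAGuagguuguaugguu
mmu-miR-23a-3p: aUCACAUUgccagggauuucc
mmu-miR-34a-5p: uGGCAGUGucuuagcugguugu
The miR-30 sequences share the seed GUAAACA and the let-7 sequences share GAGGUAG. Mir30b and Mir30d are named only.

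Intergenic peaks were narrower than genic peaks and, up to a width of 5 kb, similar to them in fold enrichment. Their median width was 1074 bp (quartiles 709 and 1789 bp), against 1874 bp (911 and 4744 bp) for genic peaks, and their widest was 20744 bp against 175983 bp. The rule itself bears on width, because a wide peak is more likely to touch a gene and then counts as genic. How much of the difference in width comes from the rule was not tested. The fold enrichment the authors deposited, the ratio of signal to background in the peak, had a median of 2.29 in intergenic peaks and 2.38 in genic peaks. Within bins of width the medians lay close together: 2.196 against 2.18 under 1 kb, 2.30 against 2.28 from 1 to under 2 kb, and 2.52 against 2.50 from 2 to under 5 kb. The largest difference was among peaks of 5 kb and over, with 2.98 in the 54 intergenic peaks (95% interval of the median 2.76 to 3.16) and 3.49 in the 7851 genic peaks (3.45 to 3.55). The 5 intergenic peaks just inside the width limit were all 500 bp wide, with folds from 2.02 to 2.27, and lay nearest to Tunar, Gm10248, Pptc7, Cul1 and Nr1h2. The 5 just outside the limit were 498 or 499 bp wide, with folds from 2.03 to 2.26, and lay nearest to Map3k3, Dusp5, Ada, Zfp738 and Arid1b.

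Together the intergenic peaks covered 3.02 Mb, against 159.6 Mb under genic peaks. Not all control signal outside genes sat in them. Of the 5.17 Mb of sequence outside genes that any control peak covered, intergenic peaks held 58.3%, genic peaks that ran past the edge of a gene held 33.9%, and intergenic peaks under 500 bp held 7.76%. The narrow peaks left out by the width limit were more often intergenic: 1214 of 11738, or 10.3% (9.80 to 10.9%). By chromosome, the share of control peaks that were intergenic ran from 3.598% on chromosome 14, with 44 of them, to 6.99% on chromosome 10, with 121. Per Mb of sequence between genes the order was different, from 0.671 intergenic peaks on chromosome 14 to 3.02 on chromosome 11, with chromosome 19 next at 2.92.

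Most intergenic peaks lay close to a gene. The median gap from the edge of the peak to the edge of the nearest gene was 1921 bp (quartiles 675 and 7108 bp, range 10 to 432655 bp). A gene lay within 1 kb of 678 peaks (34.0%), within 5 kb of 1362 (68.4%, 66.3 to 70.4%) and within 20 kb of 1815 (91.1%). Only 13 peaks were over 100 kb from any gene, and 164 were 20 to 100 kb away. By length, 60.4% of the bases under intergenic peaks were within 5 kb of a gene, against 19.4% of all sequence between genes. The nearest gene was protein-coding for 1377 peaks (69.1%, where 43.9% of all genes are), a lncRNA gene for 374 (18.8%, against 26.4% of genes), a pseudogene for 162 (8.13%, against 18.9%) and a microRNA gene for 32 (1.61%, against 2.41%). A gene inside another gene counts in these shares of genes but can hardly be the nearest gene of an intergenic peak. Of the 1136 microRNA genes, 222 lay outside all other genes, so their 2 shares are not alike. Median gaps were 1347 bp to protein-coding genes, 2801 bp to microRNA hairpins, 4844 bp to lncRNA genes and 9124 bp to pseudogenes.

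Genic peaks were nearly as close. The median gap to the nearest genic control peak of any width was 2861 bp (quartiles 1138 and 14705 bp), and 1201 intergenic peaks (60.3%, 58.1 to 62.4%) had one within 5 kb. The smallest gap, 489 bp, was also the smallest between any control peaks in the list, so peaks nearer than that cannot appear as separate entries. At the other end, 123 intergenic peaks (6.17%) had no genic peak within 100 kb. A cluster was a set of intergenic peaks at most 10 kb apart with no gene between them. In 85 clusters no peak at all had a genic peak within 100 kb.

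**Figure D1:**
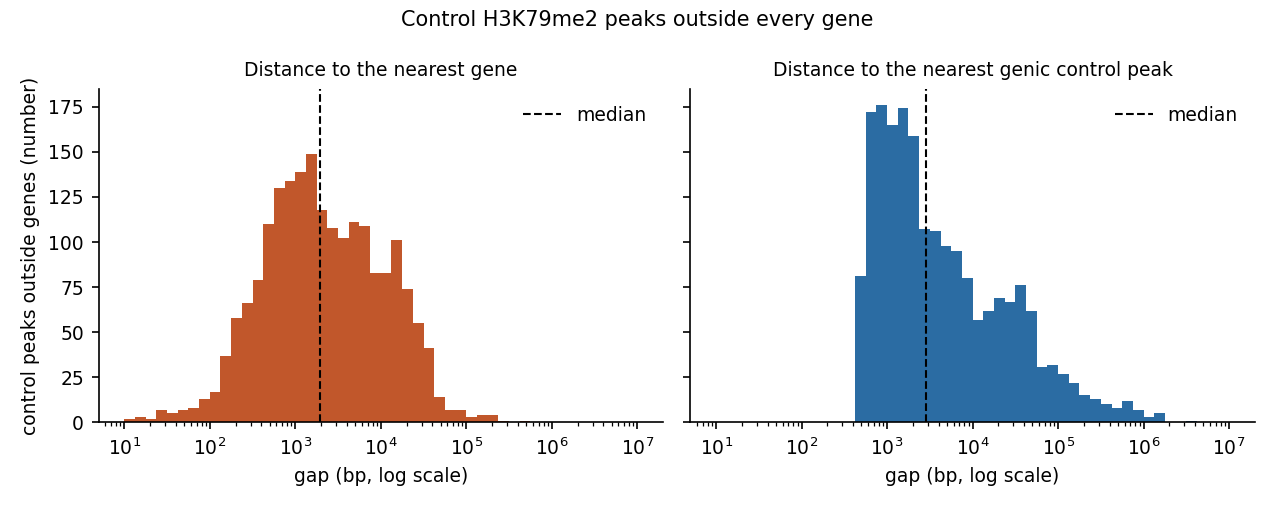
Histograms of the gap (bp, log scale) from each of the 1992 control peaks outside genes to the nearest gene (left) and to the nearest genic control peak (right), with the number of peaks on the vertical axis and a dashed line at the median. The left distribution centres at 1921 bp and reaches down to 10 bp, while the right one starts at 489 bp, centres at 2861 bp and has a longer tail past 100 kb.

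The gene beside an intergenic peak was usually a marked gene. For 1516 of the 1992 (76.1%, 74.2 to 78.0%) the nearest gene had a control peak on it, against 30.6% of all 47042 genes of any biotype. For 1435 (72.0%) the nearest genic peak lay on that same nearest gene. Sequence between genes whose nearest gene was marked had 12.3 bp under intergenic peaks per kb, and sequence whose nearest gene was unmarked had 0.677 bp per kb. Marked neighbours accounted for 76.0% of the covered bases but for 14.9% of the sequence.

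Position relative to the gene was described for the 25748 genes whose strand the RefSeq promoter table gives, all on chromosomes 1 to 17 and 19. Of the intergenic peaks, 973 lay upstream of their nearest gene, 455 lay downstream and 564 had a nearest gene without a listed strand. Within 1 kb the counts were 426 upstream and 97 downstream. Over all distances, coverage was 5.89 bp per kb of sequence at 0 to 1 kb from a gene, 8.00 at 1 to 5 kb, 2.55 at 5 to 20 kb, 0.631 at 20 to 100 kb and 0.0638 beyond 100 kb. Beside marked genes, the first 1 kb upstream had 34.6 bp per kb and the first 1 kb downstream had 5.36. At 1 to 5 kb these values were 49.6 upstream and 9.89 downstream, and at 5 to 20 kb they had come together at 9.08 and 7.56. At 20 to 100 kb from marked genes the order was turned, with 1.85 upstream and 3.63 downstream. These values rest on only 32271 and 74151 covered bp, so a few places weigh heavily. For instance, 6 peaks lying 33524 to 51584 bp downstream of Gtf2e1 covered 12702 bp. Beside unmarked genes no value exceeded 1.36 on either side within 100 kb. A peak that reaches the gene is not counted as intergenic, and separate peaks are at least 489 bp apart; the part of either in the lower value of the first 1 kb was not tested.

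**Figure D2:**
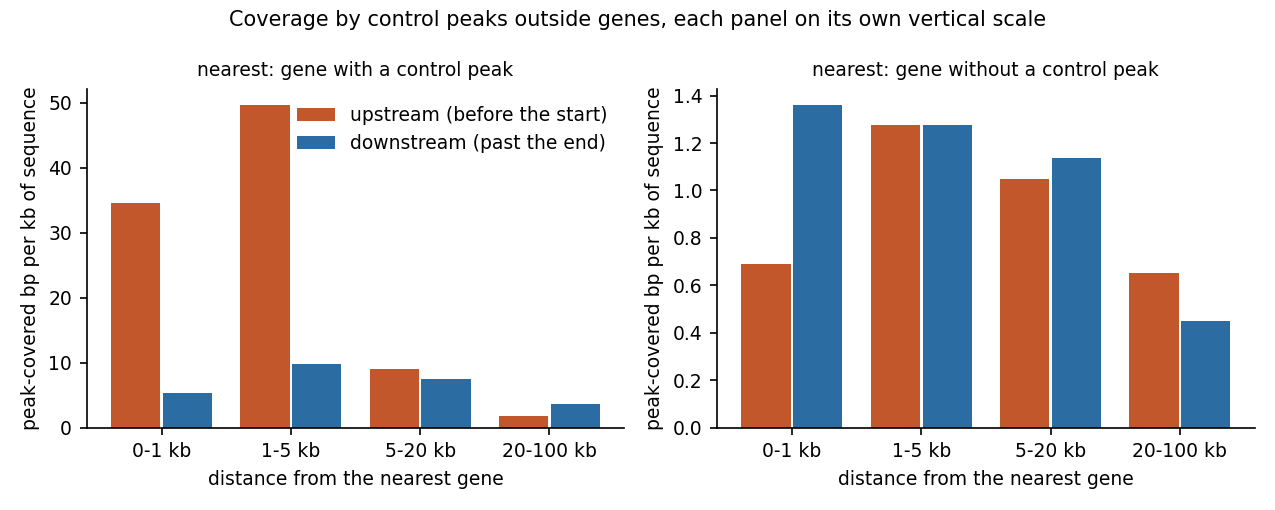
Bases under control peaks outside genes per kb of sequence (vertical axis, a separate scale in each panel) by distance from the nearest gene, upstream (orange) and downstream (blue), for nearest genes with a control peak (left) and without (right). Upstream of marked genes the bars reach 34.6 and 49.6 bp per kb within 5 kb, against 5.36 and 9.89 downstream, whereas no bar beside unmarked genes exceeds 1.36.

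Gene orientation on both flanks gave the same ordering. Gaps between 2 gene starts held 302 intergenic peaks and 6.47 covered bp per kb, gaps between a start and an end held 515 and 4.63 bp per kb, and gaps between 2 gene ends held 154 and 2.68 bp per kb. In the remaining gaps the strand of at least 1 flank was not listed, and they held 1017 peaks at 1.67 bp per kb. Upstream peaks were also somewhat wider, with a median of 1133 bp against 954 bp downstream.

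The most enriched intergenic peak was the one at Zbtb2, a gene for a zinc-finger and BTB-domain transcription factor. It spanned chr10:4388271-4401294 (13024 bp), with a deposited fold of 7.20 and a −log10 q of 35.5, and began 162 bp upstream of Zbtb2. Rmnd1, on its other flank, was 1874 bp away, so the peak filled most of the space between the genes. No EPZ5676 peak overlapped it.

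Next in fold came a peak of 5623 bp at chr4:126477341-126482963 with a fold of 6.01, between the Argonaute genes Ago1 and Ago4, whose proteins bind small RNAs. A second intergenic peak of 6400 bp (fold 4.22) lay between it and Ago1, 996 bp upstream of that gene. The next was a peak of 7666 bp at chr17:6469815-6477480 with a fold of 5.72 and the highest −log10 q of all, 43.2. Its flanks were the pseudogenes Tmem181b-ps and Ppp1r2-ps5, 18820 and 14710 bp away. Pseudogenes resemble other genes in sequence, so placement of reads there is uncertain.

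Rpl11, which encodes a protein of the large ribosomal subunit, had 6 intergenic peaks upstream of it, 18826 to 34106 bp from the gene. Their folds ran from 2.17 to 5.22, the highest belonging to a peak of 2310 bp that was 25677 bp away. Further peaks among the 10 of highest fold lay by Fbxl20 (fold 4.64, an F-box protein gene), Mir30d (4.28), the snRNA gene Gm24950 (4.26) and Thap1 (4.23, a zinc-finger factor gene, 174 bp away). Of these 10 peaks 0 were overlapped by an EPZ5676 peak; the share was 1.36% of all intergenic peaks and 8.27% of all control peaks of at least 500 bp, so 10 peaks are too few to differ from it.

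Clusters showed where several intergenic peaks formed longer stretches. The 1992 peaks made 1468 clusters, of which 1131 had 1 peak and 337 had more, holding 861 peaks. The longest coverage was 22471 bp in 8 peaks downstream of D10Wsu102e (chr10:83374280-83407492), a gene that was itself 100% covered by a control peak. A stretch of 21288 bp in 6 peaks at chr12:20197067-20225820 lay by Gm32719, a gene with no control peak, 86847 bp from the nearest genic peak. Upstream of the lncRNA gene BC039771 there were 5 peaks with 20640 bp, the closest 369 bp from the gene. The remaining 2 of the 5 longest clusters were the peak at Mir30d and the peaks by Zbtb16.

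Zbtb16 encodes PLZF, a transcriptional repressor needed for the self-renewal of spermatogonial stem cells. Its gene was 91.5% covered by control peaks, and 6 intergenic peaks lay beside it at chr9:48841831-48864534. They were 5605, 7078, 12524, 17231, 23366 and 25401 bp from the gene, with widths of 925, 3836, 4190, 5561, 658 and 2908 bp. Their folds were between 2.35 and 2.95, and together they covered 79.6% of a 22704 bp span. No EPZ5676 peak overlapped the gene or these peaks.

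Between the ends of the olfactory receptor gene Olfr1350 and the imprinted gene Zim2, 8 intergenic peaks covered 15443 bp (45.9% of a 33628 bp span), with folds from 2.05 to 2.58. Olfr1350, the nearer gene, had no control peak, and the nearest genic peak, 17073 bp away, was on Zim2 and ran past its end. Another 8 intergenic peaks by Rbmxl2, a gene expressed in male germ cells that encodes an RNA-binding protein, adjoined a gene 93.4% covered by a peak. Of these 8, 7 lay downstream and the widest was 10577 bp (fold 3.32).

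The 10 peaks farthest from any gene were 553 to 2218 bp wide. The farthest, at chr14:82972363-82972975, was 613 bp wide with a fold of 2.42, 432655 bp from the nearest gene and 3376098 bp from a genic peak. A group of 3 peaks at about chr10:35466136-35485195 lay 223392 to 227102 bp from Amd2 or the pseudogene Gm18729. They were 1220, 786 and 2218 bp wide with folds of 2.21, 2.23 and 2.70. The 13 peaks beyond 100 kb had a median width of 775 bp (95% interval 613 to 1220 bp) and a median fold of 2.21 (2.18 to 2.38). These intervals include the medians of all intergenic peaks, 1074 bp and 2.29. The 678 peaks within 1 kb had medians of 1266 bp and 2.34. Between those distances there was no steady fall. The medians were 987 bp and 2.25 at 1 to 5 kb, 1001 bp and 2.26 at 5 to 20 kb, and 1088 bp and 2.30 at 20 to 100 kb.

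MicroRNA hairpins were the annotated neighbours of the widest intergenic peak. Of 222 hairpins that lie outside all other genes, 25 had an intergenic peak within 10 kb and no other gene between, which is 11.3% of them. The same share was not computed for other kinds of gene. By nearest gene, microRNA genes had 1.61% of intergenic peaks and were 2.41% of genes. The second share counts all 1136 microRNA genes, also those inside other genes, so it is not a like background. Hairpins of the same cluster share the same peaks, so the 25 are not independent. The widest peak, 20744 bp at chr15:68341750-68362493 (fold 4.28, −log10 q 12.5), began 460 bp from Mir30d. A second, of 2450 bp (fold 2.34), lay between Mir30d and Mir30b, 179 bp from the Mir30d hairpin and 1068 bp from Mir30b. The nearest genic peak was 83505 bp from the wide peak, and no EPZ5676 peak overlapped either.

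The other miR-30 locus had a similar layout with more pieces. A peak of 11821 bp at chr1:23257193-23269013 (fold 3.56) ended 3255 bp from Mir30a, and a peak of 1183 bp (fold 2.51) lay 1579 bp from it. The mature Mir30a sequence is on the plus strand, so both lay on the 5′ side of the hairpin. A control peak of 2202 bp covered the hairpin itself and counts as genic for that reason. Mir30c-2, downstream, had a peak of 707 bp at 2073 bp. Unlike the Mir30d peak, the 11821 bp peak had 2 EPZ5676 peaks on it, 457 and 271 bp wide, which covered 728 bp or 6.16% of it.

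**Figure D3:**
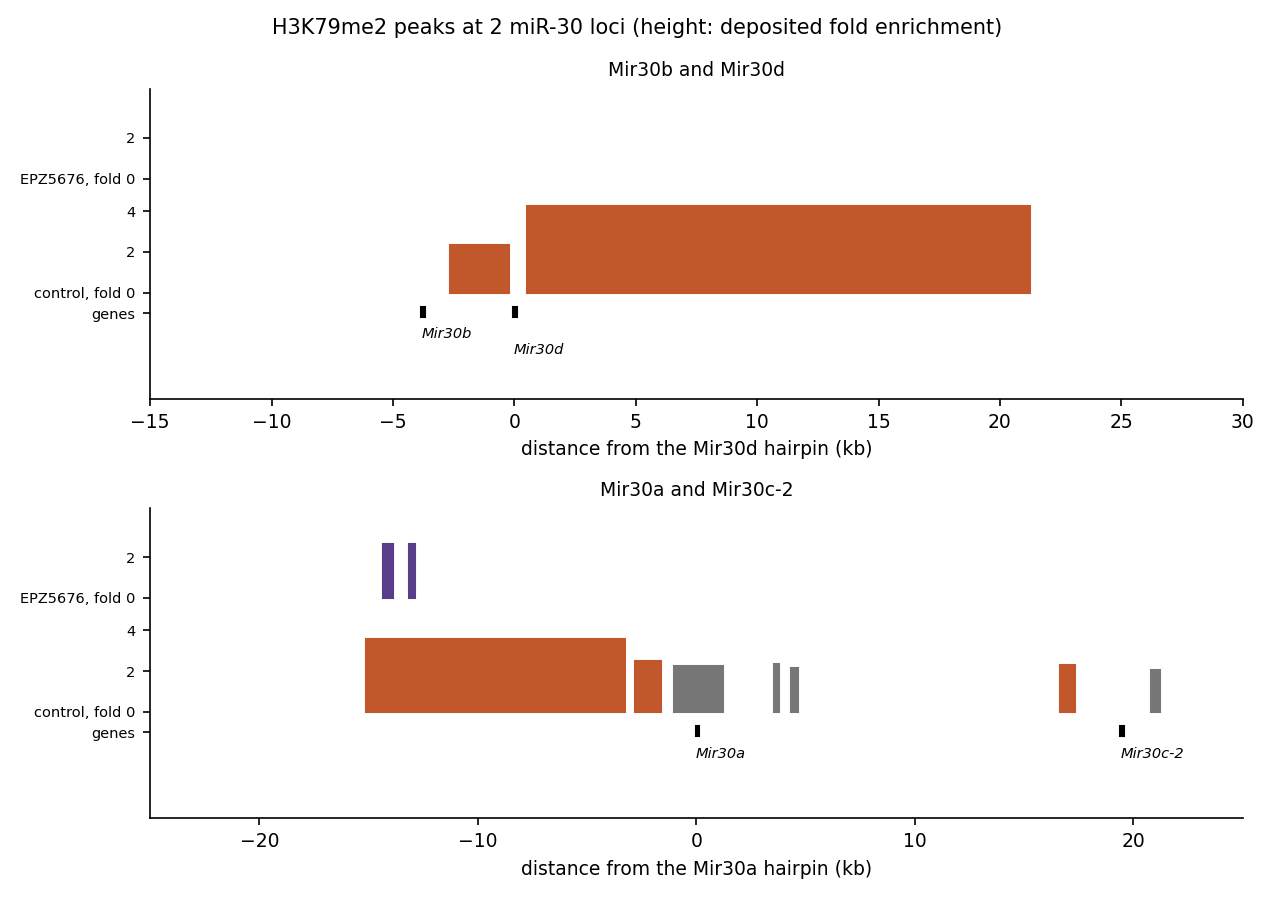
Maps of the control peaks (lower rows; orange, outside genes, and grey, touching a gene or under 500 bp) and EPZ5676 peaks (purple) around Mir30b and Mir30d (top) and Mir30a and Mir30c-2 (bottom), with distance from the hairpin in kb across and deposited fold enrichment as height. The peak of 20744 bp beside Mir30d has no EPZ5676 peak, and the peak of 11821 bp beside Mir30a has 2, of 457 and 271 bp.

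Further hairpins had narrower neighbours. The Mir23a, Mir27a and Mir24-2 cluster, processed from a shared primary transcript, had a peak of 9020 bp (fold 2.97) ending 29 bp from Mir23a, on the 5′ side. It was part of a run of 4 intergenic peaks, 16252 bp in all, between Mir181c and Mir23a (chr8:84187624-84208488). Mirlet7i had a peak of 4064 bp (fold 3.05) at 386 bp, on the 3′ side of the hairpin, with the nearest genic peak 69847 bp away. Mirlet7a-1 and Mirlet7f-1 had 1 narrower peak of 1631 bp about 9 kb away, at 9016 and 9371 bp, and a control peak also lay on the hairpins themselves, as at Mir181c and Mir181d. Mir34a, a well-known target of p53, had 3 peaks within 10 kb, of 2442, 523 and 836 bp with folds of 2.18 to 2.53, the closest at 231 bp. Mature sequences were used for 22 of the 25 hairpins, not for Mir30b and Mir30d. Of the 6 hairpins outside genes with the let-7 seed GAGGUAG among the sequences used, 3 were among the 25. EPZ5676 peaks overlapped the intergenic peaks at 2 of the 25 hairpins, Mir30a and Mir146.

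Of the 112 genes of 7 lists on these chromosomes, 10 were the nearest gene of at least 1 intergenic peak. The share was 5.17% of all protein-coding genes, 8.94% of protein-coding genes with a control peak and 3.18% of genes of any biotype. All 10 had a control peak, but the 112 include genes without one, so the 8.94% is not a like share. The count is not read as a trait of the lists. Of the 25 genes of undifferentiated spermatogonia, 3 were such neighbours: Zbtb16 with 6, Foxo1 with 2 and Taf4b with 1. Foxo1, a forkhead transcription factor of stem cell maintenance, was 96.6% covered by control peaks, and its intergenic peaks were 1243 and 3998 bp upstream. Taf4b encodes a germ-cell-enriched subunit of TFIID, and its peak of 1721 bp was 1351 bp away. Among the 11 genes of spermatogonial differentiation on these chromosomes it was Dmrt1 alone, with 2 peaks at 905 and 2197 bp and a gene 97.8% covered. The count was 0 of 11 for germ cell identity genes, too few genes to differ from those shares.

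In the GDNF and FGF list, a control peak lay on all 21 genes and an EPZ5676 peak on 12. Over all genes of any biotype 7.03% had an EPZ5676 peak, but only 30.6% of those genes had a control peak. The share among genes with a control peak was not computed, so no like share can be set beside these 21 genes. An intergenic peak had 5 of them as its nearest gene: Pik3ca (a catalytic subunit of PI3 kinase, peak of 2147 bp at 1586 bp), Dusp6 (an ERK phosphatase, 1507 bp at 2490 bp), Fgfr1 (an FGF receptor, 1501 bp at 283 bp), Grb2 (an adaptor, 1433 bp at 934 bp) and Sos1 (a Ras exchange factor, 820 bp at 494 bp). Those by Pik3ca, Dusp6, Grb2 and Sos1 were upstream, and the strand of Fgfr1 is not listed. Of 12 genes of the DOT1L complex and elongation, Dot1l itself had an intergenic peak, 745 bp wide with a fold of 2.78, 360 bp upstream of the gene. The count was 0 of 16 for fibroblast genes and 0 of 16 for testis somatic genes, also too few to read against those shares. Of the 17 intergenic peaks beside list genes 0 were overlapped by an EPZ5676 peak, a number too small to tell from the 1.36% of all intergenic peaks.

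EPZ5676 peaks, which the choice of intergenic peaks did not use, rarely fell on them. Of the 1992, 27 were overlapped by an EPZ5676 peak by at least 1 bp, or 1.36% (0.895 to 1.97%). The share was 8.69% (8.39 to 8.996%) of genic peaks, 2870 of 33037, the background over both sets being 8.27%. Wider peaks were overlapped more often in both sets. Under 1 kb the shares were 0.993% (0.455 to 1.88%) of intergenic and 2.45% (2.15 to 2.78%) of genic peaks. From 1 to under 2 kb they were 1.17% (0.506 to 2.29%) and 3.96% (3.54 to 4.42%). From 2 to under 5 kb they were 2.02% (0.815 to 4.11%) of intergenic peaks and 5.59% (5.10 to 6.12%) of genic peaks. At 5 kb and over, 3 of 54 intergenic peaks gave 5.56% (1.16 to 15.4%), against 24.0% (23.1 to 24.97%) of genic peaks. The intervals of intergenic and genic peaks did not overlap in any of the 4 bins, and no test was made, because peaks of 1 list are not replicates. The bin of 5 kb and over has no upper limit, so width is not matched within it. Its widest peak was 20744 bp among intergenic peaks and 175983 bp among genic peaks.

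**Figure D4:**
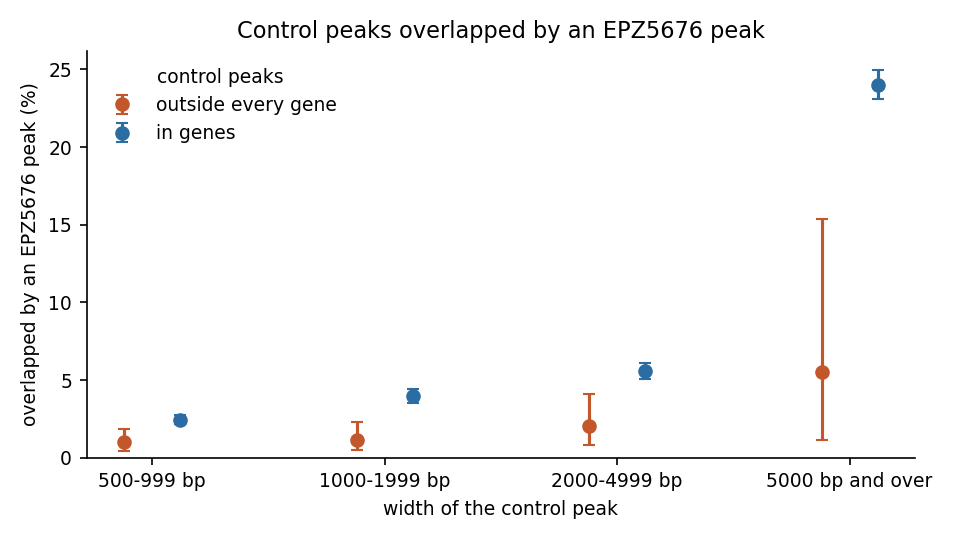
Share of control peaks overlapped by an EPZ5676 peak (%, vertical axis) in 4 bins of control peak width, for peaks outside every gene (orange) and in genes (blue); bars are exact 95% intervals, which cover the sampling of peaks only. The orange points run from 0.993 to 5.56% and the blue points from 2.45 to 24.0%, with the orange point lower in every bin.

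By length the difference had the same direction. EPZ5676 peaks covered 0.523% of the bases under intergenic peaks and 1.78% of those under genic peaks. In the bins from narrow to wide the shares of length were 0.347, 0.430, 0.458 and 1.17% in intergenic peaks and 1.28, 1.42, 1.35 and 1.94% in genic peaks. The EPZ5676 peaks that did fall on intergenic peaks numbered 31, with a median width of 467 bp and a median fold of 2.76, against 461 bp and 2.77 for the 4902 on genic peaks. Seen from the EPZ5676 list, 2013 of its 9182 peaks lay outside genes (21.9%), and 45 of those (2.24%) overlapped a control peak of any width, while 5074 of the 7169 in genes did (70.8%). The lists reach down to different floors, a −log10 p of 4.03 in the EPZ5676 list and 2.36 in the control list. They do not show whether a place without an EPZ5676 peak had lost the mark or lay below the limit of calling.

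Nearness to a genic peak went with no higher share. Of the 1201 intergenic peaks within 5 kb of a genic peak, 12 were overlapped (0.999%, 0.517 to 1.74%), and of the 123 more than 100 kb from one, 3 were (2.44%, 0.506 to 6.96%), so these intervals overlap. The 1066 genic peaks that those 1201 bordered were overlapped in 231 cases (21.7%, 19.2 to 24.3%), but their median width was 6904 bp. At 0 to 1 kb from a gene 7 of 678 intergenic peaks were overlapped, at 1 to 5 kb 8 of 684, at 5 to 20 kb 9 of 453, at 20 to 100 kb 3 of 164, and beyond 100 kb 0 of 13, which allows a share of up to 23.1% by the limit of 3 counts used for a count of 0.

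The 27 overlapped intergenic peaks had a median width of 1725 bp and a median fold of 2.36, against 1072 bp and 2.29 for the other 1965. The densest group was a cluster of 9 intergenic peaks at chr15:85655550-85693961, between the lncRNA genes D130051D11Rik and Lncppara, the second of which holds Mirlet7c-2 and Mirlet7b. The 9 peaks were 788 to 6908 bp wide with folds of 2.08 to 2.52. Along them lay 7 EPZ5676 peaks, 178 to 1728 bp wide with folds of 2.76 to 2.97. They overlapped 4 of the 9 and covered 6389 of their 16052 bp, or 39.8%. Those 6389 bp were 40.5% of all EPZ5676-covered bases on intergenic peaks, and without this cluster 23 of 1983 intergenic peaks (1.16%) and 0.313% of their length were overlapped. Lncppara had no control peak on it, and the nearest genic control peak was 18021 bp from the cluster.

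**Figure D5:**
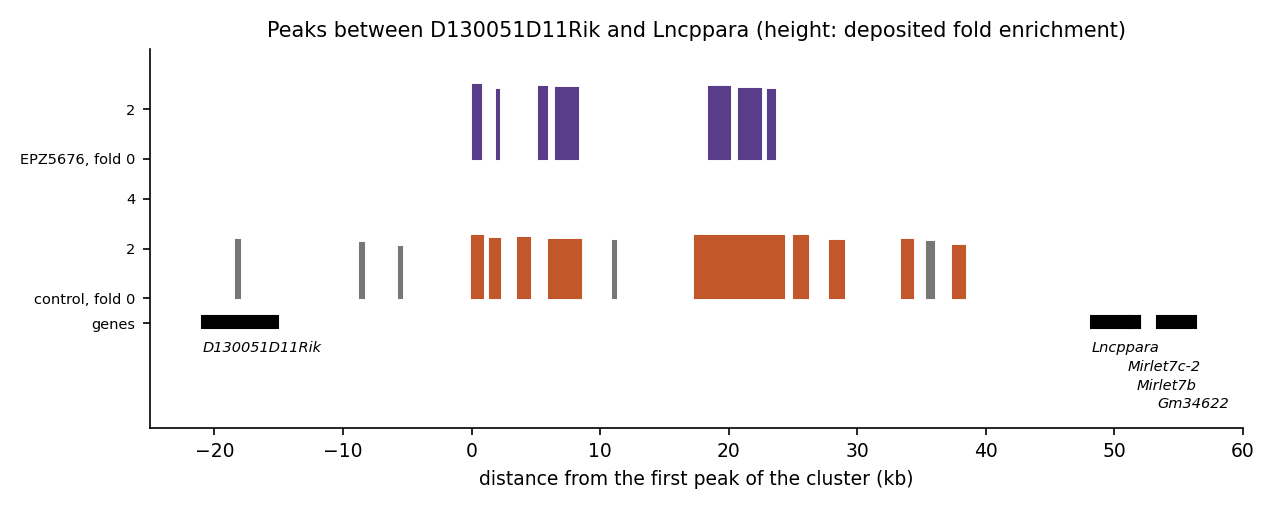
Map of control peaks (lower row; orange, outside genes, and grey, touching a gene or under 500 bp) and EPZ5676 peaks (purple) between D130051D11Rik and Lncppara, with distance from the first peak of the cluster in kb across and deposited fold enrichment as height. The 7 EPZ5676 peaks have folds of 2.76 to 2.97 and the 9 orange control peaks 2.08 to 2.52; folds of different lists are not on a common scale.

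Within this cluster the peak of 6908 bp had 3 EPZ5676 peaks that covered 3901 bp (56.5%), and a peak of 2510 bp had 1664 bp covered (66.3%). The other overlaps were shorter. On chromosome 9 a peak of 1332 bp (fold 2.41), 8554 bp from the snRNA gene Gm25401 and 145550 bp from a genic peak, had 864 bp covered (64.9%). Beside coding genes, the overlaps included a peak of 2925 bp with a fold of 3.92 that ended 363 bp from Bicra, a gene for a subunit of a BAF chromatin remodelling complex, with 661 bp covered (22.6%). A peak of 1822 bp lay 1932 bp upstream of Col5a1, a collagen gene, with 655 bp covered (35.9%). Near Prdm2, a zinc-finger histone methyltransferase gene, a peak of 1772 bp that ended 109 bp from the gene had 383 bp covered (21.6%).

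Predicted genes and pseudogenes flanked some of the rest. A peak of 1912 bp by Gm40469 (chr8:20557224-20559135, fold 2.69) had 752 bp covered, and a peak of 1640 bp by the pseudogene Gm21811 (chr8:20125956-20127595, fold 3.07) had 628 bp covered. Their −log10 q values of 8.57 and 9.001 were, after the 10.1 of the peak by Bicra, the highest of the 27, and placement of reads beside pseudogenes is uncertain here too. Further overlaps lay around the lncRNA genes Gm16897, Gm32250 and A330023F24Rik on chromosome 1, with 232, 437 and 691 bp covered. The shortest overlap of all was 15 bp, on a peak of 612 bp at 10947 bp upstream of Metrnl.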

How the data were processed

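H3K79me2 was mapped by chromatin immunoprecipitation and sequencing. The submitters' processing notes name deepTools, Trimmomatic, bcl2fastq (2.20.0.422) and the mm10 build; aligner and peak caller: not given in the sources used here. The 2 deposited lists (1 per condition, without header) give for each peak a score, a fold enrichment (ratio) and −log10 p and q values, all the authors' own. They served to describe, rank or filter peaks within a list. Read depth is not in the lists, so no depth per sample can be given.

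Peaks were compared with RefSeq gene spans of GRCm38.p6, the assembly that mm10 names, using Python 3.11.15, numpy 2.4.6, pandas 2.3.3 and scipy 1.17.1; the code was tested on simulated data. Overlap meant at least 1 bp, and coordinates are 1-based. Sequence between genes was measured base by base from the first to the last gene of each chromosome, which leaves out 4 peaks. Strand came from the RefSeq promoter table for 25748 of 47042 genes, on chromosomes 1 to 17 and 19, a choice made after seeing the data. Shares have exact Clopper-Pearson 95% intervals, and medians have order-statistic intervals. The intergenic peaks and the gene lists were chosen with earlier results of these data known. Named peaks were the 10 widest, the 10 of highest fold, the 10 farthest from a gene, those with the longest EPZ5676 overlap, the 5 longest clusters and those by genes of 7 lists, the genes nearest to the most peaks, and the neighbours of the width limit; some named items are not reported here. MicroRNA loci, promoter windows and other clusters were added after seeing the data. Alternatives varied width, gene set, stringency, overlap and cluster distance.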

Additional observations from a re-analysis of the deposited data

Results flagged for a closer look

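Peaks on the sex chromosomes were not among the 1992. The same rule of position and width was applied there. On chromosome X 24 of 727 control peaks lay outside every gene, and on chromosome Y 5 of 18 did. Whether these shares differ from those of the other chromosomes was not tested. The widest of these peaks outside genes were 4347 bp on X and 2148 bp on Y.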

How the results depend on the processing

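Of 75 alternative values, 31 stayed within the interval or limit set for each and 44 moved. The cause of the moves was not tested. A minimum width of 1 kb left 1086 intergenic peaks (4.40%), with a median gap of 1586 bp to a gene and 2285 bp to a genic peak, and 0.0339 bp per kb beyond 100 kb. No minimum width gave 3206 (6.86%), 2203 bp and 3466 bp. With protein-coding spans only there were 3275 (9.35%), with a gap of 4855 bp, 50.5% within 5 kb, 84.3% beside a marked gene and 2.32% overlapped by EPZ5676. Spans extended by 1 kb left 1314 (3.75%), and by 5 kb 630 (1.80%). Control peaks with −log10 q of at least 2 numbered 1151 (4.91%), with gaps of 1599 and 2476 bp, 73.0% beside a marked gene and 0.0326 bp per kb beyond 100 kb, and 11.1% of genic peaks were overlapped by EPZ5676. At the −log10 p floor of the EPZ5676 list there were 666 (4.07%), with gaps of 1266 and 2238 bp, 71.0% within 5 kb and 70.1% beside a marked gene; 13.6% of genic peaks were overlapped, and coverage by distance was 2.94, 3.90, 1.43, 0.313 and 0.0153 bp per kb. Limits of 1 and 20 kb gave 34.0 and 91.1% in place of the share within 5 kb. With at least 50% of the control peak covered, EPZ5676 overlapped 0.301% of intergenic and 0.736% of genic peaks. Counting EPZ5676 peaks within 1 kb gave 9.46% of genic peaks. Without the cluster by Lncppara, an alternative chosen after seeing the data, 0.313% of intergenic length was overlapped. The EPZ5676 share was lower in intergenic than in genic peaks under each alternative run for both. No paired analysis was possible because each condition has 1 peak list, and for the same reason no replicate could be left out. Depth is unknown, so how far it limits the narrow and weak peaks cannot be stated.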
